A study of Homo sapiens with 9 samples.

Results

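TL4-2A cells express L2A–2B–3–4, a linear transcript of the 4 SMN exons in its name, and were compared here with T-REx cells, the parental line that carries no insertion. T-REx cells derive from HEK293, a human embryonic kidney line, and express the Tet repressor, so that an inserted gene is switched on by doxycycline (Dox). The members are the 3 TL4-2A and 3 T-REx libraries of a series of 9, and all 19473 genes that passed the expression filter out of 60648 in the count table. All 6 libraries came from cells given Dox for 96 h, so that Dox itself is shared and the insertion, the line's history and the linear transcript all go with the TL4-2A label and cannot be told apart. The other 3 libraries are from TC4-2A cells, which express the circular RNA of the same exons and had the same Dox treatment. Their values are given beside those of TL4-2A cells for comparison. They also entered the expression filter, the scaling and the shared fit behind every edgeR p-value. The sources used here do not say if TL4-2A is 1 clone or if separate cultures gave the 3 libraries, so each p-value reflects library-to-library spread, which may be technical.

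The survival motor neuron protein is made from SMN1 and its copy SMN2. It works with the Gemin proteins to load Sm proteins onto spliceosomal small nuclear RNAs, and its loss causes spinal muscular atrophy. The exons of the inserted gene are shown because they decide what the counts of SMN1 and SMN2 can tell. They lie on the plus strand of chromosome 5 (GRCh38, Gencode v44), in the SMN1 gene from 70938839 to 70938910, from 70941389 to 70941508, from 70942358 to 70942558 and from 70942718 to 70942870, and all 4 are coding exons. Their lengths are 72, 120, 201 and 153 bases, or 546 together, and the same letters stand in SMN2, where exon 2A begins at 70063415 and exon 4 ends at 70067446.
Exon 2A: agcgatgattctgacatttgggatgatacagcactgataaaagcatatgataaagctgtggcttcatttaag
Exon 2B: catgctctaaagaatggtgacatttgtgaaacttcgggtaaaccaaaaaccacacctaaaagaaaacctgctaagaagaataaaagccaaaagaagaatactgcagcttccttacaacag
Exon 3: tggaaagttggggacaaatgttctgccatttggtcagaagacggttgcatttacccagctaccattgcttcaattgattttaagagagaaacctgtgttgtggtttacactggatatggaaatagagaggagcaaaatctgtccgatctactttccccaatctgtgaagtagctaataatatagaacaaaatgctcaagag
Exon 4: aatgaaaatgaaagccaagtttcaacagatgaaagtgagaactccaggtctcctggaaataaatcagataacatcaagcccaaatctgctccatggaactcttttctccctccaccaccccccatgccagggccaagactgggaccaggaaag
A read within these exons matches SMN1, SMN2 and the inserted gene equally, so the division of counts between SMN1 and SMN2 is uncertain. Summed over both genes, the 3 T-REx libraries had 53.6, 55.1 and 55.6 CPM (counts per 1000000 of the TMM-scaled library) and the 3 TL4-2A libraries 61.6, 61.5 and 64.1. The groups did not overlap. SMN1 alone was 0.15 higher on the log2 scale (standard error 0.05, edgeR adjusted p = 0.0164) and SMN2 was 0.27 higher (standard error 0.07, edgeR adjusted p = 0.00116). The call of SMN1 was lost without T-REx replicate 1 (edgeR adjusted p = 0.111), without TL4-2A replicate 3 (edgeR adjusted p = 0.0731) and with DESeq2 (adjusted p = 0.0511).

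Total counts ran from 18626807 to 21491977 in T-REx and from 16561680 to 18873247 in TL4-2A libraries. Correlations of log CPM between libraries were 0.993 to 0.994 within a line and 0.981 to 0.983 between the lines, and no library repeated another. Markers of other cell types were checked for a foreign population. Of 11 blood cell markers 0 passed the expression filter, and their summed level was 0.939 to 1.17 CPM in T-REx and 1.07 to 1.39 CPM in TL4-2A cells. Of 7 endothelium markers 1 passed, the transcription factor ERG, and it rose from 1.06, 1.25 and 1.04 CPM to 2.79, 2.25 and 2.19 CPM (edgeR adjusted p = 0.000159). The 14 kidney epithelium markers summed to 123 to 130 CPM in T-REx and 195 to 211 CPM in TL4-2A cells, with 6 tested and 4 listed at 0. Most of that sum was LRP2, the endocytic receptor megalin, at 106, 97.4 and 98.2 CPM in T-REx and 186, 172 and 188 CPM in TL4-2A cells. PAX2 and WT1, developmental kidney factors, had 7.19 and 11.1 CPM in T-REx cells and 7.36 and 11.2 CPM in TL4-2A cells, and neither was called. AQP1, a water channel, was 1.22 higher, LHX1 was 0.86 lower and NPHS1 was also called lower. LRP2 lies in the higher run of chromosome 2 described below. Without it, 1 of 5 kidney markers tested rose and 2 fell, with a median of 0.01. The 9 glia markers summed to 36.5 to 37.5 CPM and 30.2 to 30.8 CPM, with OLIG1, MBP and GFAP called lower. The 14 neuron markers summed to 74.4 to 76.1 CPM in T-REx and 84.6 to 86.6 CPM in TL4-2A cells. Of 8 tested, 3 were called higher (GAD1 0.57, SNAP25 0.43 and SYP 0.32 on the log2 scale) and 2 lower (MNX1 and RBFOX3). GAD1 lies in the same run as LRP2. Without the 2 neuron markers in runs, 2 of 6 rose and 2 fell, with a median of -0.29. Of 12 adrenal markers 2 were tested and 0 called (CHGB 0.25 and CHGA -0.23), of 10 fibroblast markers 3 were tested with COL3A1 (0.66) and PDGFRA (0.57) higher and COL1A1 (-0.48) lower, and of 10 markers of liver, keratinocyte and breast lines 1 was tested. That gene, GATA3, was called lower (edgeR adjusted p = 0.038), a call lost with DESeq2 (adjusted p = 0.173). Among the fibroblast markers, COL3A1 lies in the same run as LRP2 and GAD1. The part of cell type in the results below was not tested beyond these levels.

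TL4-2A and T-REx cells differed in many genes, mostly by little. At an adjusted p under 0.05, 8633 genes were called, or 44.3% of those tested. Of these, TL4-2A cells had 4256 (21.9%) at a higher and 4377 (22.5%) at a lower level. In these bulk samples, fewer cells with a transcript and less of it per cell cannot be told apart. Differences under 1.5-fold made up 6436 of the calls, or 74.6%, and the median size of a called difference was 0.33 on the log2 scale. The 3 TL4-2A libraries lay wholly above or wholly below the 3 T-REx libraries in 8109 of the called genes. A call favours genes with such a separation, and the share over all genes tested is not given here. The count therefore adds no support to the calls. More than 2-fold differences were rarer and leaned to decreases, with 270 genes (1.39% of those tested) higher and 511 (2.62%) lower. Beyond 4-fold there were 30 higher and 97 lower genes. Genes that moved more than 2-fold were weakly expressed. Those that rose had a median of 0.551 CPM in T-REx and 1.44 CPM in TL4-2A cells, and those that fell had 1.67 and 0.572 CPM, against a median of 14.9 CPM in T-REx cells over all genes tested. Of the 270, 117 were protein-coding and 84 long noncoding RNA genes, and of the 511, 309 and 141.

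The largest rise of a protein-coding gene with a mean of 1 log2 CPM or more was in LSAMP, which encodes a neuronal adhesion molecule of the immunoglobulin family. LSAMP (ENSG00000185565.12, minus strand of chromosome 3 from 115802374 to 117139389) had 1.59, 0.927 and 1.46 CPM in T-REx libraries and 24.5, 23.6 and 26.3 CPM in TL4-2A libraries. Its log2 fold change was 4.24 (standard error 0.13, edgeR adjusted p = 6.41e-25). The genes around LSAMP did not rise with it, and the 5 genes tested on either side had a median log2 fold change of -0.15. LRRC7, which encodes a scaffold protein of excitatory synapses, went from 0.795, 0.556 and 0.469 CPM to 6.60, 8.34 and 7.07 CPM (log2 fold change 3.59, standard error 0.21, edgeR adjusted p = 1.89e-16). Its neighbours had a median of -0.09, but ENSG00000287453 among them went from 0.185 to 2.36 CPM (3.62, edgeR adjusted p = 5.34e-11). VEGFC, the growth factor of lymphatic vessels, rose from 0.848, 1.21 and 1.20 CPM to 5.45, 5.29 and 4.75 CPM (2.24 on the log2 scale).

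MTMR3 combined a large rise with a high level. It encodes a phosphatase that removes a phosphate from phosphatidylinositol 3-phosphate, a lipid that marks endosomes and autophagosomes, and lies on the plus strand of chromosome 22 from 29883169 to 30030868. The T-REx libraries had 73.9, 67.9 and 66.5 CPM and the TL4-2A libraries 1136, 1102 and 1047 CPM. The log2 fold change was 3.98 (standard error 0.04, edgeR adjusted p = 3.73e-43). MTMR3 was 3.81 higher in TL4-2A than in TC4-2A cells (edgeR adjusted p = 1.12e-42), where it had 78.3 ± 1.59 CPM (SD, n = 3). The 10 genes tested around it had a median of 0.17. One of them, ENSG00000279159, went from 0.0682 to 1.22 CPM (4.06 on the log2 scale, edgeR adjusted p = 5.18e-08), whereas SF3A1, a splicing factor subunit, changed by 0.21. Of the 23 myotubularins and related PI3P enzymes tested, 6 were higher and 3 lower with a median of 0.07. Apart from MTMR3 the members that rose did so by 0.12 to 0.54, the largest being PIKFYVE, the kinase that converts PI3P further, which lies in a run of higher genes on chromosome 2 described below. MTMR12 fell by 0.48.

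The other 11 largest rises of protein-coding genes were between 1.61 and 2.04 on the log2 scale. They included ANO4 of the anoctamin family (2.04), the ethanol-metabolising cytochrome CYP2E1 (2.00), the zinc finger gene ZNF676 (1.99) and KCNIP3, a calcium-binding partner of potassium channels (1.86). KCNIP3 had 7.11, 5.005 and 5.79 CPM in T-REx and 20.7, 21.1 and 22.9 CPM in TL4-2A libraries. RPRM, a p53-induced gene of cell cycle arrest, had 4.67, 5.75 and 5.22 CPM in T-REx and 16.4, 20.8 and 16.7 CPM in TL4-2A libraries (1.78). RPRM and DOCK10 lie in the higher run of chromosome 2. The rest were DOCK10, a guanine nucleotide exchange factor (1.74), the postsynaptic scaffold gene DLGAP2 (1.70), the glypican gene GPC5 (1.69), FER1L5 (1.65), SCART1 (1.64) and the histone H3 gene H3C7 (1.61). CYP2E1 and SCART1 are near each other at the end of chromosome 10, where OR7M1P also rose (2.20, from 0.138 to 0.634 CPM, edgeR adjusted p = 0.000535). All 15 of the largest rises had a higher level in TL4-2A than in TC4-2A cells by the direct contrast (edgeR adjusted p from 1.12e-42 to 2.63e-06), a comparison in which 35.4% of all genes tested were called.

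**Figure D1:**
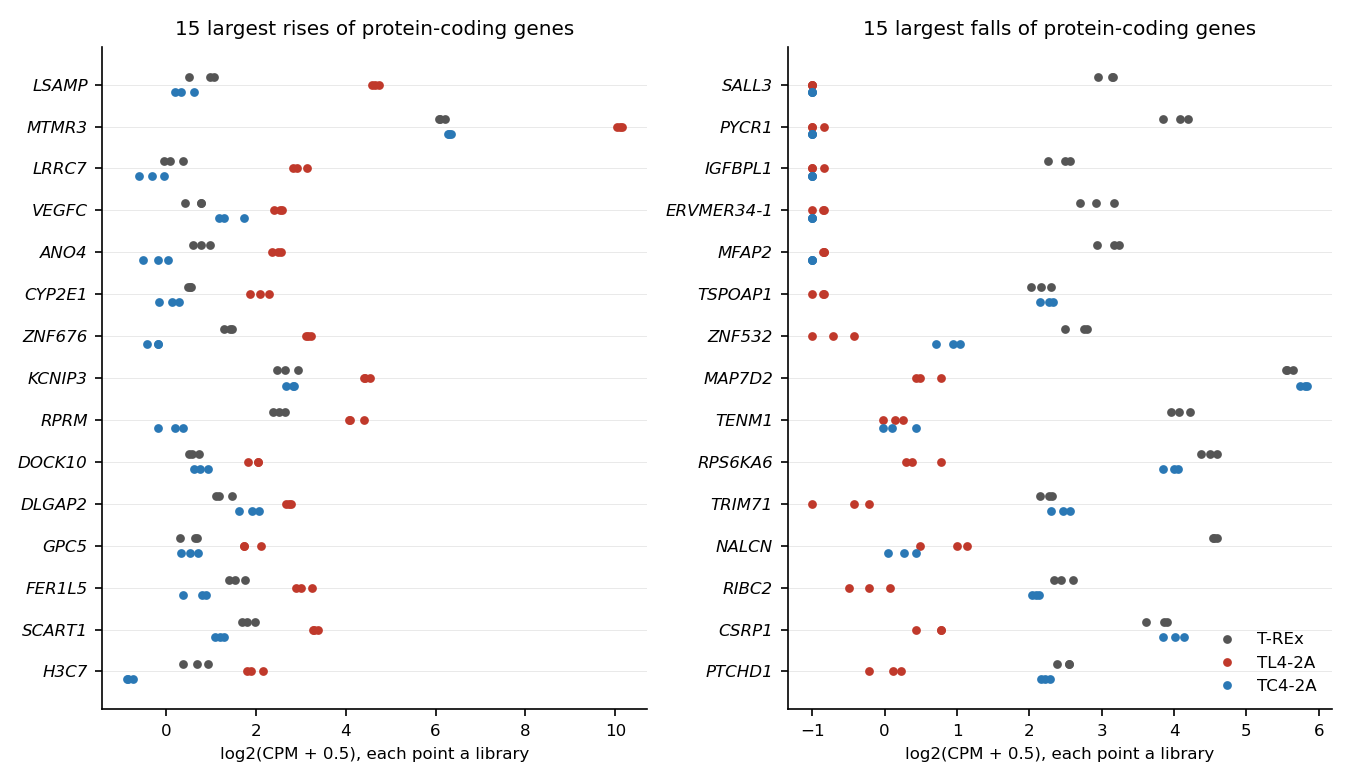
Level of the 15 protein-coding genes with the largest rise and the 15 with the largest fall, as log2(CPM + 0.5) on the horizontal axis, with a point for each library of T-REx (grey), TL4-2A (red) and TC4-2A cells (blue). The red points lie apart from the grey ones because the genes were chosen for groups that did not overlap. MTMR3 stands at 1047 to 1136 CPM in TL4-2A cells.

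The largest falls led to near absence. In 5 genes every T-REx library had at least 5 CPM and every TL4-2A library under 0.5 CPM (SALL3, PYCR1, MFAP2, ERVMER34-1 and ZNF532), and in 0 genes was the reverse found. SALL3, a zinc finger transcription factor of limb and nervous system development on the plus strand of chromosome 18 from 78979818 to 79002677, had 8.38, 8.34 and 7.25 CPM in T-REx libraries and 0 counts in all 3 TL4-2A libraries. Against a floor of 3 counts over the 3 libraries, it was at least 138-fold lower. PYCR1, the last enzyme of mitochondrial proline synthesis, had 16.4, 17.8 and 13.9 CPM in T-REx cells (959 counts) and 1 count in TL4-2A cells, a ratio of 831 with an exact 95% counting interval from 149 to 32840. MFAP2, a component of elastic microfibrils, had 486 counts against 3 (ratio 140, interval 47.7 to 683), and ERVMER34-1, an envelope gene of an endogenous retrovirus, 427 against 2 (ratio 185, interval 50.9 to 1532). IGFBPL1, related to the insulin-like growth factor binding proteins, had 296 counts against 1 (ratio 256, interval 45.7 to 10160). These intervals cover counting error only.

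These losses were not all particular to TL4-2A cells. SALL3, PYCR1, IGFBPL1, ERVMER34-1 and MFAP2 were also at 0 counts in every TC4-2A library, and the direct contrast of the derived lines called none of the 5 (edgeR adjusted p from 0.0941 to 1). Where a gene stood at or near 0 in both lines, that contrast has little to measure. TENM1, which encodes a teneurin of synaptic adhesion, had 18.1, 15.1 and 16.3 CPM in T-REx and 0.484, 0.695 and 0.610 CPM in TL4-2A libraries (-4.76 on the log2 scale). It was at 0.634 ± 0.191 CPM in TC4-2A cells (difference -0.08, edgeR adjusted p = 0.88). NALCN, the sodium leak channel that sets resting excitability, fell from 23.7, 22.99 and 22.8 CPM to 0.908, 1.497 and 1.71 CPM (-4.07) and was 0.96 higher than in TC4-2A cells (edgeR adjusted p = 0.00436).

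Other genes were lower in TL4-2A than in TC4-2A cells. MAP7D2, a microtubule-associated protein of neurons on the minus strand of the X chromosome from 20006713 to 20116907, had 49.3, 46.3 and 46.5 CPM in T-REx and 0.908, 0.856 and 1.22 CPM in TL4-2A libraries. Its log2 fold change was -5.57 (standard error 0.10, edgeR adjusted p = 5.83e-33), and TC4-2A cells had 55.2 ± 2.06 CPM (difference -5.79, edgeR adjusted p = 1.56e-34). The genes on either side of MAP7D2 had a median of -0.19. RPS6KA6, a kinase of the ribosomal S6 kinase family, fell from 22.01, 20.2 and 23.6 CPM to 1.21, 0.802 and 0.731 CPM (-4.58). TSPOAP1, a presynaptic scaffold protein, fell from 4.40, 3.98 and 3.55 CPM to 0, 0.0535 and 0.0610 CPM. CSRP1, a LIM domain protein of the actin cytoskeleton, fell from 14.1, 14.4 and 11.7 CPM to 1.21, 0.856 and 1.22 CPM (-3.62). TRIM71, an RNA-binding repressor of early embryonic and stem cells, fell by 4.40 on the log2 scale, and RIBC2, a ciliary protein, and PTCHD1, a patched-domain membrane protein, fell by 3.75 and 3.23. ZNF532 fell by 5.60 and was also reduced in TC4-2A cells, to 1.37 ± 0.216 CPM. By the direct contrast all 8 of these genes were lower in TL4-2A than in TC4-2A cells (edgeR adjusted p from 1.56e-34 to 8.61e-08). The genes tested around each of these 30 protein-coding genes (10, but 6 for CYP2E1 and 8 for SCART1) had medians from -0.23 to 0.53. MFAP2 was the exception, with neighbours on chromosome 1 at a median of -1.03. Single neighbours moved further. GRIA3, a glutamate receptor gene beside TENM1, went from 0.0486 to 2.15 CPM, PHEX-AS1 beside PTCHD1 from 0.0309 to 0.619 CPM, and LINC01896 beside SALL3 from 0.816 to 0 CPM.

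Long noncoding RNA genes rose by up to 3.16 on the log2 scale. LINC00632 on the plus strand of the X chromosome (from 140709562 to 140793215) is the locus from which the circular RNA CDR1as is made. It had 19.8, 22.7 and 22.3 CPM in T-REx libraries and 149.7, 147 and 159 CPM in TL4-2A libraries. This is a log2 fold change of 2.81 (standard error 0.05, edgeR adjusted p = 2.85e-32), and TC4-2A cells had 16.3 ± 0.366 CPM. The count table does not separate a circular product from the linear host. MIR222HG, the host transcript of the microRNAs miR-221 and miR-222 (minus strand of the X chromosome from 45745210 to 45770274), had 3.92, 3.80 and 4.23 CPM in T-REx and 26.9, 24.8 and 25.5 CPM in TL4-2A libraries (2.69, standard error 0.09, edgeR adjusted p = 1.26e-23). It was 1.64 higher than in TC4-2A cells (edgeR adjusted p = 7.04e-19). A neighbouring unnamed long noncoding RNA gene, ENSG00000269902, rose by 3.16. The mature microRNAs of the locus, from RefSeq on GRCh38.p14, are shown with their seed (bases 2 to 8) in capitals, because they share it.
hsa-miR-221-3p: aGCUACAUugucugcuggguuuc
hsa-miR-222-3p: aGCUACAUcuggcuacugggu
They lie on the minus strand of the X chromosome from 45746180 to 45746202 and from 45747036 to 45747056, and their own levels were not measured in these libraries. LINC01687 (2.24) and LINC00355 (1.39) completed the 5 largest rises of long noncoding RNA genes. Among the falls, KC6 on chromosome 18 had 5.94, 4.73 and 5.27 CPM in T-REx libraries and 0 counts in TL4-2A cells, at least 90.9-fold lower against the floor of 3 counts over the 3 libraries. LINC00649 fell by 2.17, ENSG00000260077 by 1.95, ODC1-DT by 1.58 and LIFR-AS1 by 1.48. How the counting treated strand is not given in the sources used here, so reads of antisense and divergent genes may be mixed with those of their partners.

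Part of the differences came in runs of neighbouring genes. Genes with a position on chromosomes 1 to 22 and X (19432 of those tested) were ordered by start, and every other gene was scanned in windows of 15 for a median log2 fold change beyond 0.25. The genes left out of the scan then gave the values below. They also decided which runs were kept, so each kept median lies beyond 0.25 by that rule. Of 49 runs found, 9 had a median beyond 0.25 in the same direction in their left-out genes, 4 higher and 5 lower in TL4-2A cells. These 9 runs held 1775 genes (9.13%), of which 1229 were called. The median size of a called difference was 0.53 on the log2 scale in the runs and 0.29 outside. The median over all left-out genes was 0.00. The other 40 runs are not described further, except on chromosome 13.

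The largest run was higher and took the end of the long arm of chromosome 2. It ran over 545 genes from 135510546 to 242088457, or 107 megabases. Of its 272 left-out genes 191 were higher, 5 lower and 76 not called, with a median of 0.48 and quartiles of 0.32 and 0.66. In log2(CPM + 0.5) relative to the T-REx mean, the medians of these genes were 0.43, 0.46 and 0.45 in the 3 TL4-2A libraries and within 0.01 of 0 in the 3 T-REx libraries. The 20 genes before the run had a median of 0.00. TC4-2A cells had a median of 0.00 against T-REx cells here, and the direct contrast called 194 of the 272 genes higher in TL4-2A cells and 3 lower. Its genes of highest CPM were PTMA, a chromatin-associated acidic protein (0.28), the nucleolar protein gene NCL (0.43), the mitochondrial chaperonin HSPD1 (0.54) and the ribosomal protein gene RPL37A (0.57). HDLBP, an RNA-binding protein of the rough endoplasmic reticulum, rose from 530.2, 529 and 524 CPM to 909, 884 and 906 CPM (0.77). XRCC5, the Ku80 subunit of DNA end joining (0.62), the ubiquitin ligase TRIP12 (0.62) and the axonal kinesin KIF1A (0.72) lie there too.

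Of the 5 lower runs, the 4 on chromosomes 1, 2, 16 and 18 were near chromosome ends as well. On chromosome 1, 357 genes from 631074 to 27672212 had a median of -0.46 in 178 left-out genes, of which 127 were lower and 1 higher. The 20 genes after the run had a median of -0.01. ENO1, the glycolytic enolase, fell from 1646, 1657 and 1642 CPM to 1083, 1111 and 1116 CPM (-0.58). STMN1, the microtubule-destabilising stathmin, fell from 438, 479 and 461 CPM to 281, 297 and 285 CPM (-0.68), and RPL11 and SPEN by 0.27 and 0.14. MTATP6P1, a copy of mitochondrial DNA at the start of the run, was 0.16 higher, and reads from mitochondria and from this copy cannot be told apart. On the long arm of chromosome 16, 329 genes from 58462846 to 90019890 had a median of -0.42 in 164 left-out genes, 99 of them lower and 3 higher. RPL13 there fell from 907, 986 and 933 CPM to 607, 643 and 624 CPM (-0.59), AARS1, the alanyl-tRNA synthetase, by 0.57 and the splicing factor gene SF3B3 by 0.50, while CNOT1 of the CCR4-NOT deadenylase rose by 0.18. At the start of chromosome 2, 73 genes up to position 20051628 had a median of -0.52 in 36 left-out genes, 28 of them lower and 2 higher. That value moved to -0.24 in 85 genes without TL4-2A replicate 3, where another set of genes was left out of the scan. RPS7 fell from 459, 477 and 460 CPM to 304, 322 and 297 CPM (-0.60), and YWHAQ by 0.57, whereas DDX1, close to the end of the run, rose by 0.11.

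The other runs were smaller in size or extent. On chromosome 12, 215 genes from 14522 to 25250936 had a median of 0.35 in 107 left-out genes, 65 higher and 7 lower, and include GAPDH. GAPDH, often used as a reference gene, had 1558, 1644 and 1619 CPM in T-REx and 2062, 2016 and 2059 CPM in TL4-2A libraries (0.35, standard error 0.03, edgeR adjusted p = 6.05e-12). The cell cycle gene CCND2 (0.53), the kinase WNK1 (0.46) and the glycolytic TPI1 (0.40) rose beside it. On chromosome 5, 119 genes from 14797125 to 55227315 had a median of -0.32, with 36 of 59 left-out genes lower and 0 higher. Of its genes of highest CPM, TARS1 (threonyl-tRNA synthetase) and RPL37 fell by 0.42 each and NUP155 of the nuclear pore by 0.31, while ZFR (0.03) was not called. For the 5 runs described so far, apart from the higher one on chromosome 2, TC4-2A cells had left-out medians between -0.06 and 0.04.

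The last runs were less certain or were shared. On chromosome 18, 45 genes up to position 8639383 had a median of -0.31 in 22 left-out genes in TL4-2A and -0.36 in TC4-2A cells, and the direct contrast called 3 of the 22. TYMS, the thymidylate synthase, fell by 0.44, SMCHD1, a chromatin silencing factor, by 0.28 and USP14 by 0.24, while EPB41L3 (0.08) was not called. At the end of chromosome 13, 43 genes had a median of 0.39 in 21 left-out genes in TL4-2A and 0.24 in TC4-2A cells, and TFDP1, a partner of E2F factors, rose by 0.37 and the ubiquitin ligase scaffold CUL4A by 0.43. ATP11A and the lysosomal LAMP1 rose by 0.41 and 0.18. A longer stretch of chromosome 13, 235 genes from 32400723 to 100088972, had a median of 0.21 in TL4-2A and 0.23 in TC4-2A cells in 117 left-out genes and so did not pass the threshold. A short run on chromosome 5, from 140647058 to 141942047, held the clustered protocadherins and had a median of 0.34 in 24 left-out genes, 13 higher and 2 lower. Its genes of highest CPM, which are not protocadherins, did not share this: HARS1 rose by 0.22, DIAPH1 fell by 0.08, and IK (-0.03) and TAF7 (-0.06) were not called. The run was not found with windows of 25 and reached 0.17 when the other set of genes was scanned. On chromosome 18 the value was -0.17 without TL4-2A replicate 2, and at the end of chromosome 13 it was 0.22 without TL4-2A replicate 1. DNA copy number was not measured here, and its part in these runs was not tested.

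**Figure D2:**
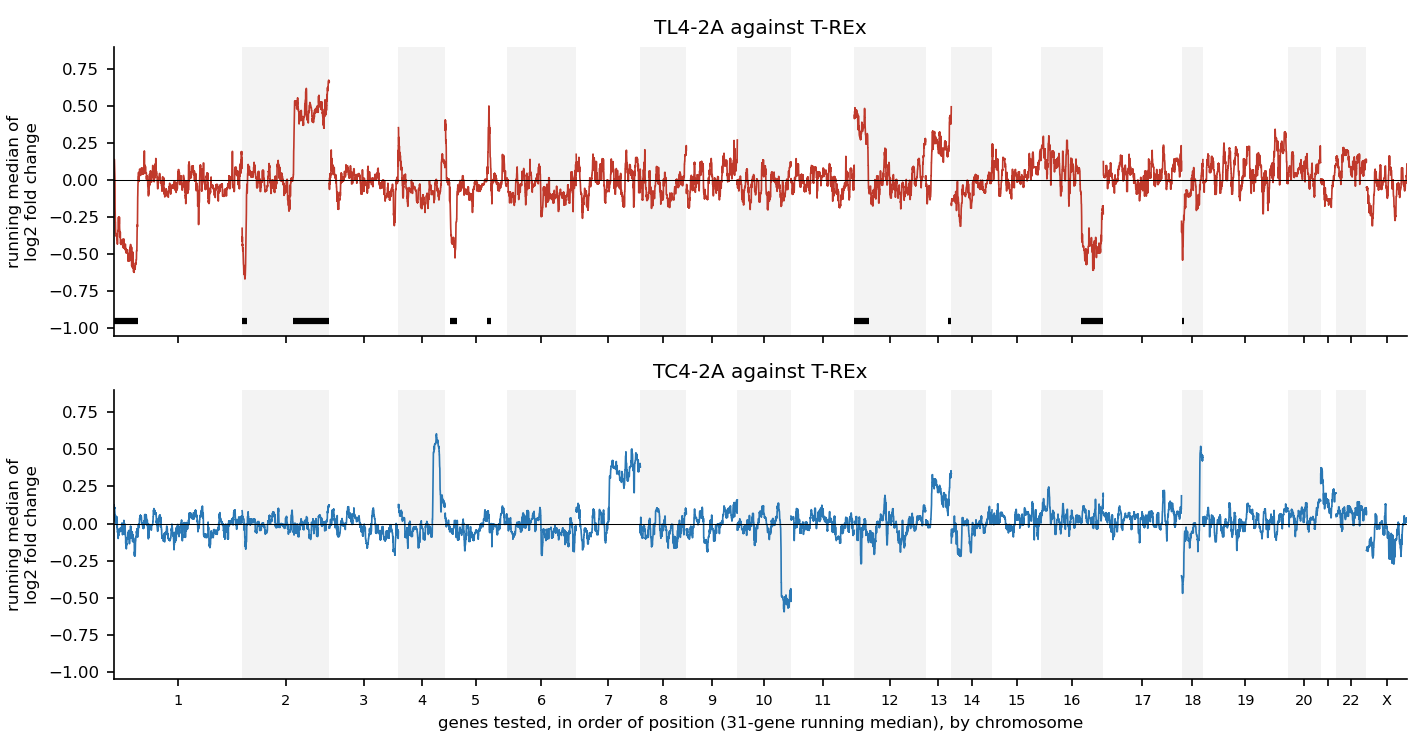
Running median of log2 fold changes over 31 neighbouring genes, in order of position along chromosomes 1 to 22 and X (horizontal axis, gene order), for TL4-2A (upper panel) and TC4-2A cells (lower panel) against the same T-REx libraries. Black bars mark the 9 runs of TL4-2A cells, which include the higher end of chromosome 2 (0.48) and the lower start of chromosome 1 (-0.46).

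**Figure D3:**
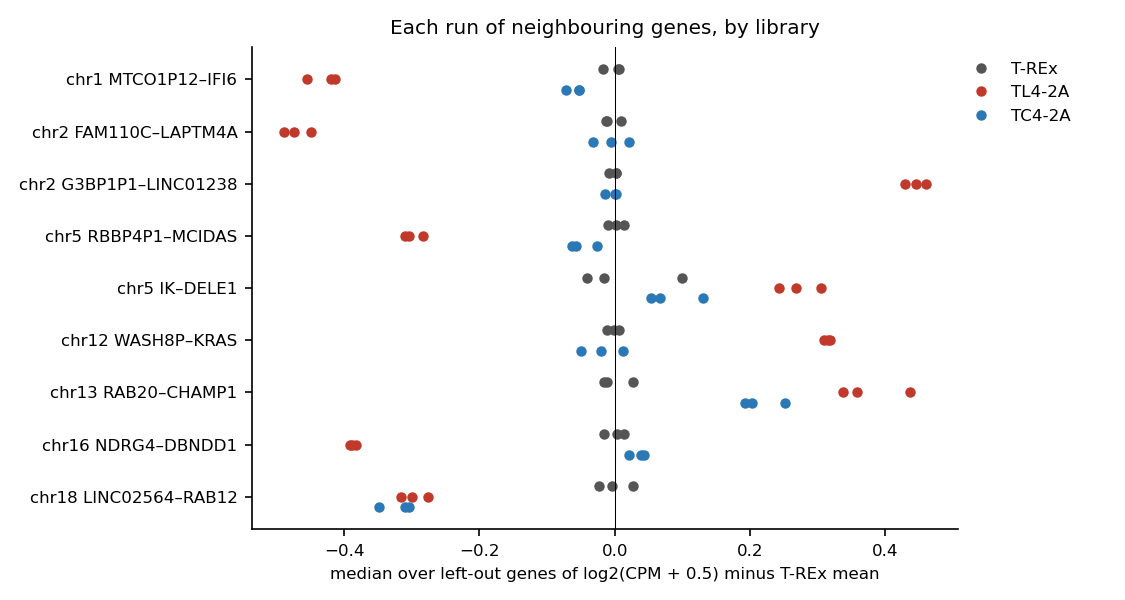
Median of log2(CPM + 0.5) minus the T-REx mean over the left-out genes of each of the 9 runs, with a point for each of the 9 libraries and each run named by its chromosome and its first and last gene. The 3 TL4-2A points lie together and apart from the T-REx points in every run. The runs were kept by the medians of these genes, so that distance is set in part by the choice. The TC4-2A points lie with the TL4-2A points on chromosome 18.

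Outside the runs 7404 of 17698 genes were called, 3672 higher and 3732 lower, including 213 genes more than 2-fold higher and 415 more than 2-fold lower. The calls beyond 2-fold outside the runs were 80.4% of all such calls. The runs held 9.13% of the genes with a position, so these calls were more frequent in the runs than outside. In the runs, which were chosen by their changes, 69.2% of genes were called, against 41.8% outside. Genes of high CPM outside the runs included MTMR3, described above, IRS4 and SAT1. IRS4, an adapter of insulin receptor signalling on the X chromosome that is very active in HEK293 cells, had 2383, 2326 and 2317 CPM in T-REx and 3813, 3668 and 3698 CPM in TL4-2A libraries (0.67, standard error 0.03, edgeR adjusted p = 6.16e-20). SAT1, the enzyme that acetylates polyamines, fell from 386, 381 and 390 CPM to 253, 268 and 247 CPM (-0.59). The gene lists below were read against the shares of all genes tested, 21.9% higher and 22.5% lower, and against their median of 0.00. They are descriptions and carry no test of their own.

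Genes that respond to growth factor signalling were lower. Of 29 immediate early genes and feedback genes of the ERK pathway, 21 fell, 3 rose and 5 were not called, with a median log2 fold change of -0.44, and 0 of them lie in a run. ETV4, a transcription factor induced by ERK, had 16.8, 15.4 and 13.2 CPM in T-REx and 5.45, 4.71 and 6.03 CPM in TL4-2A libraries (-1.49, standard error 0.11, edgeR adjusted p = 1.07e-13). The ERK phosphatases DUSP5 and DUSP4 fell by 1.00 and 0.80, the inhibitor SPRY4 by 1.41 and EGR1 by 0.60. JUN fell from 288, 277 and 289 CPM to 220, 227 and 234 CPM (-0.33), and MYC from 159, 162 and 166 CPM to 122, 121 and 130 CPM (-0.38). PHLDA1, SPRY2 and SRF rose by 0.37, 0.21 and 0.16. In TC4-2A cells against the same T-REx libraries 19 of the 29 were lower and 1 higher, with a median of -0.32. The direct contrast called 5 of the 29 higher and 8 lower in TL4-2A than in TC4-2A cells. Among them was MYC, which was 0.65 lower in TL4-2A cells (edgeR adjusted p = 2.7e-18).

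The genes of the ATF4 response, which supply amino acids when translation is stressed, were also lower, with 23 of 33 fallen, 1 risen and a median of -0.24. Apart from PYCR1, the largest falls were in NUPR1 (-2.05), in SLC7A5, the carrier of large neutral amino acids (from 129, 121 and 117 CPM to 52.5, 56.0 and 57.0 CPM, -1.15), and in ALDH1L2, a mitochondrial folate enzyme (-1.12). SLC7A5 lies in the lower run of chromosome 16. STC2, a secreted glycoprotein, fell by 0.56, and SHMT2 and MTHFD2 of mitochondrial one-carbon metabolism by 0.33 and 0.20. ATF4 itself had 475 CPM in T-REx and 457 CPM in TL4-2A cells and was not called. SLC7A11, the cystine carrier, was the member that rose (0.22). In TC4-2A cells 10 members were higher and 7 lower, and the direct contrast called 22 of the 33 lower in TL4-2A than in TC4-2A cells and 0 higher.

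Chaperones of the endoplasmic reticulum, which fold secreted proteins and respond to unfolded protein, went the other way. Of 26 tested, 18 rose and 2 fell, with a median of 0.19. HSPA5, the luminal Hsp70 BiP, had 482, 494 and 514 CPM in T-REx and 676, 682 and 683 CPM in TL4-2A libraries (0.45, standard error 0.03, edgeR adjusted p = 2.72e-16). DNAJC3 and CRELD2 rose by 0.59 and 0.56, HYOU1 by 0.37, MANF by 0.36, the disulfide isomerase gene P4HB by 0.32 and CALR by 0.29. PDIA6 fell by 0.44 and lies in the lower run of chromosome 2, and DERL3 fell by 0.35. The direct contrast called 22 of the 26 higher in TL4-2A than in TC4-2A cells and 1 lower. DDIT3, which encodes the factor CHOP of the same stress, was lower in TL4-2A cells (-0.32).

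Genes induced in hypoxia fell in 13 of 19 cases and rose in 1, with a median of -0.29. In TC4-2A cells against the same T-REx libraries 11 were lower and 2 higher, with a median of -0.24. The direct contrast called 4 higher and 5 lower in TL4-2A than in TC4-2A cells. NDRG1 had 153, 144 and 139 CPM in T-REx and 49.7, 47.9 and 53.1 CPM in TL4-2A libraries (-1.53, standard error 0.04, edgeR adjusted p = 6.55e-26). The oxygen sensor EGLN3 fell by 0.78, the mitophagy receptor BNIP3L by 0.68 and VEGFA by 0.40. EGLN1 was the member that rose (0.23). Among 21 genes of the NRF2 antioxidant response, 10 fell and 2 rose, while NFE2L2, the gene of NRF2 itself, rose from 50.6, 49.1 and 50.5 CPM to 82.8, 81.6 and 80.3 CPM (0.70) within the higher run of chromosome 2. FTL, the ferritin light chain, fell by 0.60 and PGD of the pentose phosphate pathway, in the run of chromosome 1, by 0.51. Of 25 p53 targets 12 fell and 5 rose (median -0.16), with BTG2 and PMAIP1 lower by 0.70 and 0.47. In TC4-2A cells 13 of the p53 targets were lower and 1 higher (median -0.14).

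Cytoskeletal and adhesion genes leaned lower. Of 24 genes of intermediate filaments and the neuronal cytoskeleton 16 fell and 2 rose, with a median of -0.39. In TC4-2A cells 13 were lower and 2 higher, with a median of -0.22. KRT19, a simple epithelial keratin, had 85.1, 91.1 and 88.8 CPM in T-REx and 22.5, 23.5 and 25.8 CPM in TL4-2A libraries (-1.89), and KRT8 and the neurofilament gene NEFL fell by 0.75 and 0.72. MAP2, a dendritic protein in the higher run of chromosome 2, rose by 0.89. Of 26 neuronal adhesion molecules of the immunoglobulin family 14 fell and 4 rose, and in TC4-2A cells 16 were lower and 2 higher. EPCAM and ALCAM fell by 0.59 and 0.57, against the rise of LSAMP. Of 34 laminins and other matrix proteins 21 fell and 5 rose, and in TC4-2A cells 23 were lower and 2 higher. SPARC, a collagen-binding matrix protein, fell from 22.96, 24.1 and 23.2 CPM to 2.85, 4.28 and 3.05 CPM (-2.77, standard error 0.11, edgeR adjusted p = 4.32e-21). THBS4, a thrombospondin, rose from 21.9, 20.3 and 17.6 CPM to 55.8, 53.9 and 53.8 CPM (1.45), and fibronectin FN1 by 0.74 in the higher run of chromosome 2. Of 30 collagen chains 11 rose and 11 fell. COL2A1, the collagen of cartilage, rose from 23.6, 23.6 and 23.5 CPM to 73.8, 69.8 and 70.0 CPM (1.59), and COL12A1 fell by 1.48. COL27A1 rose by 0.62. Of 19 integrins 5 rose and 7 fell, with ITGA4 higher by 0.62 and ITGA7 and ITGB1 lower by 0.59 and 0.28. Without the integrins in runs, 1 of 14 rose and 6 fell, with a median of -0.13.

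HOX genes, which set position along the body axis, were mostly higher, with 24 of 37 risen, 3 fallen and a median of 0.31. The HOXD genes lie in the higher run of chromosome 2. Without the genes in runs, 18 of 28 rose and 3 fell, with a median of 0.27. HOXB3 had 85.6, 79.8 and 83.3 CPM in T-REx and 117, 117 and 113 CPM in TL4-2A libraries (0.48), and HOXB5 and HOXC11 rose by 0.66 and 0.62. HOXD3 and HOXD9 rose by 0.78 and 0.62. HOXA11, HOXA13 and HOXA9 fell by 0.39, 0.21 and 0.18. In TC4-2A cells 12 were higher and 4 lower. Of the 13 tested genes of Hedgehog signalling 7 rose and 0 fell. PTCH1, the receptor and a target of the pathway, rose from 83.4, 78.9 and 83.4 CPM to 116, 110 and 118 CPM (0.49), HHIP by 0.77 and BOC by 0.48, while GLI1, another target, had 1.63 and 1.27 CPM and was not called.

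The clustered protocadherins, cell surface proteins by which neurons tell themselves from others, had 28 of 53 genes tested, of which 16 rose and 1 fell, with a median of 0.57. With DESeq2 9 rose and 1 fell. PCDHA12 had 0.424, 0.510 and 0.574 CPM in T-REx and 1.94, 2.03 and 1.89 CPM in TL4-2A libraries (1.94), and PCDHA10 rose from 5.30, 5.38 and 5.22 CPM to 11.2, 12.2 and 13.3 CPM (1.21). PCDHB2 fell from 2.17, 2.22 and 2.92 CPM to 0.545, 0.428 and 0.488 CPM (-2.31). Exons at the 3' ends of the alpha and gamma clusters are shared by their members, so counts of single genes are uncertain.

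Signalling families split. Of 44 BMP and TGF-beta genes 17 fell and 5 rose, and in TC4-2A cells 19 were lower and 4 higher. ID2, a target of BMP signalling in the lower run of chromosome 2, fell by 1.08 and TGFB1 by 0.95, and the receptor gene BMPR2 rose by 0.48 in the higher run. Of 24 Notch genes 10 fell and 5 rose, with the ligands JAG2 and JAG1 lower by 0.79 and 0.38 and the target HES4 by 0.69. Of 46 Wnt genes 18 fell and 8 rose (11 and 6 with DESeq2), and in TC4-2A cells 18 were lower and 0 higher. RSPO4, an enhancer of Wnt signalling, fell by 2.54. The Wnt antagonist SFRP2 had 177 counts in T-REx and 1 in TL4-2A cells, a ratio of 153 with an exact counting interval from 27.2 to 6088, and the coreceptor LRP6 in the run of chromosome 12 rose by 0.42. Of 61 axon guidance genes 23 fell and 15 rose, and in TC4-2A cells 27 were lower and 4 higher. The plexin gene PLXNB2 fell by 0.47. EPHA2, in the run of chromosome 1, fell by 1.13 and EPHA4, in the higher run of chromosome 2, rose by 0.56, while EPHA5, an ephrin receptor of axon sorting, went from 0.243 to 3.63 CPM (3.91). Of 23 genes of insulin-like growth factor signalling 10 rose and 6 fell, with IGFBP7 lower by 1.42 and the insulin receptor INSR by 0.30. Without those in runs, 6 of 19 rose and 6 fell, with a median of -0.08. TENM3 and TENM4 rose by 0.19 and 0.36 while TENM1 fell, among 8 teneurins and partners with 3 higher and 2 lower. UNC80, a subunit of the NALCN channel complex in the higher run of chromosome 2, rose from a mean of 0.437 CPM to 1.02 CPM, and UNC79 was not called.

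Among lists of basic cell functions, ribosome biogenesis factors and histone genes leaned higher and the ribosomal protein genes split. Of 79 cytosolic ribosomal protein genes 15 rose and 21 fell, and the largest changes, in RPL13, RPS7 and RPL37A, lie in runs. In TC4-2A cells 31 of these genes were higher and 2 lower. The direct contrast called 2 of them higher and 39 lower in TL4-2A than in TC4-2A cells. Of 52 ribosome biogenesis factors 24 rose and 6 fell, with a median of 0.08. In TC4-2A cells 35 were higher and 0 lower, with a median of 0.14. The direct contrast called 8 of the 52 higher and 22 lower in TL4-2A than in TC4-2A cells. NOB1, NIP7, UTP4 and MRTO4, which fell by 0.34 to 0.55, lie in lower runs. WDR75 rose by 0.55 in the higher run of chromosome 2. Without the biogenesis factors in runs, 19 of 43 rose and 2 fell, with a median of 0.07. POLR1A, the large subunit of RNA polymerase I, rose by 0.43 outside the runs. Of 44 replication-dependent histone genes 19 rose and 7 fell (11 and 5 with DESeq2), with H1-3 and H4C4 higher by 0.52 and 0.42 and H2AC16 lower by 1.21, and part of these transcripts lack poly(A), which depletion of ribosomal RNA keeps. Of 10 SMN complex genes 4 rose and 1 fell, with GEMIN4 0.21 and STRAP 0.34 higher and GEMIN8 0.16 lower. STRAP lies in the higher run of chromosome 12. The other risen members were SMN1 and SMN2, whose reads in the inserted exons cannot be told from those of the inserted gene. With DESeq2 3 of the 10 rose and 0 fell. Of 16 Sm proteins and assembly factors 4 rose and 2 fell, by at most 0.36 (WDR77, of the methylosome). SNRPD3 rose by 0.23 and the methyltransferase PRMT5 fell by 0.23. Of 36 DNA replication genes 12 rose and 9 fell, and of 30 mitosis genes 5 rose and 10 fell. RRM2 in the lower run of chromosome 2 and CDT1 in that of chromosome 16 fell by 0.68 and 0.57, the kinetochore gene NDC80 by 0.55 and the checkpoint gene MAD2L1 by 0.34, while the kinase PLK1 rose by 0.17. Of 19 cytosolic heat shock proteins 7 rose and 4 fell, of 23 sterol synthesis genes 9 rose and 8 fell, and of 19 glycolysis genes 6 rose and 8 fell. Without the genes in runs, 4 heat shock proteins rose and 4 fell, and 2 glycolysis genes rose and 6 fell. The cochaperone FKBP4 rose by 0.42 and HSPA1B fell by 0.56. INSIG1, HMGCS1 and SQLE of sterol synthesis and its control fell by 0.56, 0.28 and 0.26, and the glucose transporter SLC2A3 rose by 0.77. Of 31 sensors of foreign RNA and interferon-induced genes 7 rose and 5 fell, with a median of 0.05. MAVS, the mitochondrial adapter of RNA sensing, rose by 0.28 and IFIT1 by 0.46, while IFITM2 fell from 8.54, 10.2 and 8.45 CPM to 2.60, 2.46 and 2.99 CPM (-1.77) and MX1 by 0.57. The smaller lists gave 5 of 12 oncofetal and stem cell RNA regulators higher and 4 lower, 0 of 6 C/EBP factors higher and 2 lower, 0 of 9 BEX and TCEAL genes higher and 3 lower, and 1 of 4 genes of the sodium leak channel higher and 1 lower. IGF2BP1, an oncofetal RNA-binding protein, rose by 0.22 and HMGA1 fell by 0.30. TCEAL9, TCEAL8 and TCEAL4 fell by 0.26, 0.19 and 0.13, the last of these a call lost with DESeq2 (adjusted p = 0.111). CEBPG fell by 0.19 and CEBPA (-0.10) was not called. CEBPE, a C/EBP factor of granulocytes, fell from 45.8, 43.2 and 42.5 CPM to 9.20, 9.14 and 7.44 CPM (-2.35), and it was 5.63 higher than in TC4-2A cells (edgeR adjusted p = 2.7e-22).

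**Figure D4:**
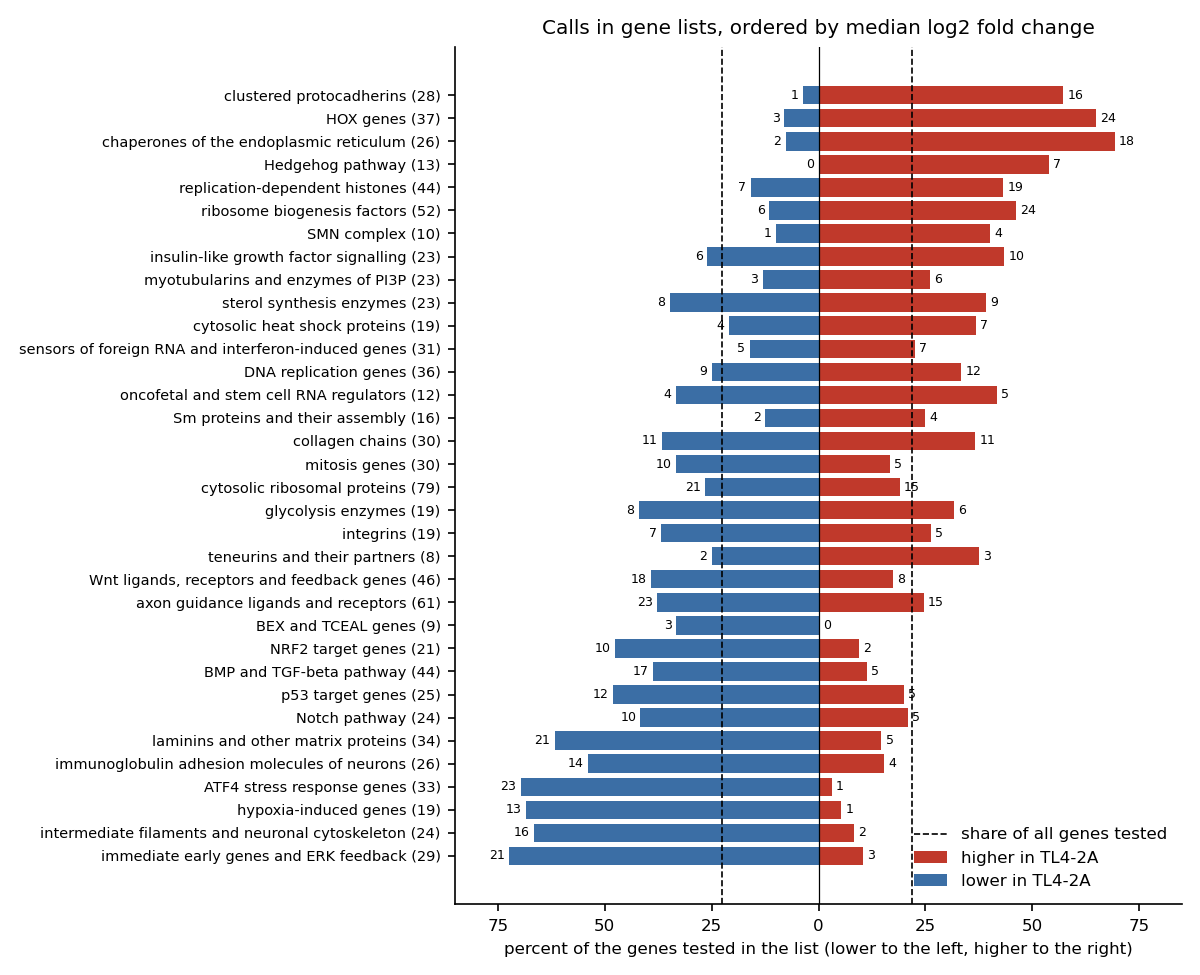
Percent of genes called in each of the lists with 8 or more genes tested, cell type markers apart, as higher (right, red) or lower (left, blue) in TL4-2A cells, with the number of genes beside each bar, the number tested in parentheses, and lists ordered by median log2 fold change. Dashed lines mark the shares over all genes tested, 21.9% and 22.5%, and the bars of immediate early genes, with 21 lower, and of endoplasmic reticulum chaperones, with 18 higher, pass them.

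**Figure D5:**
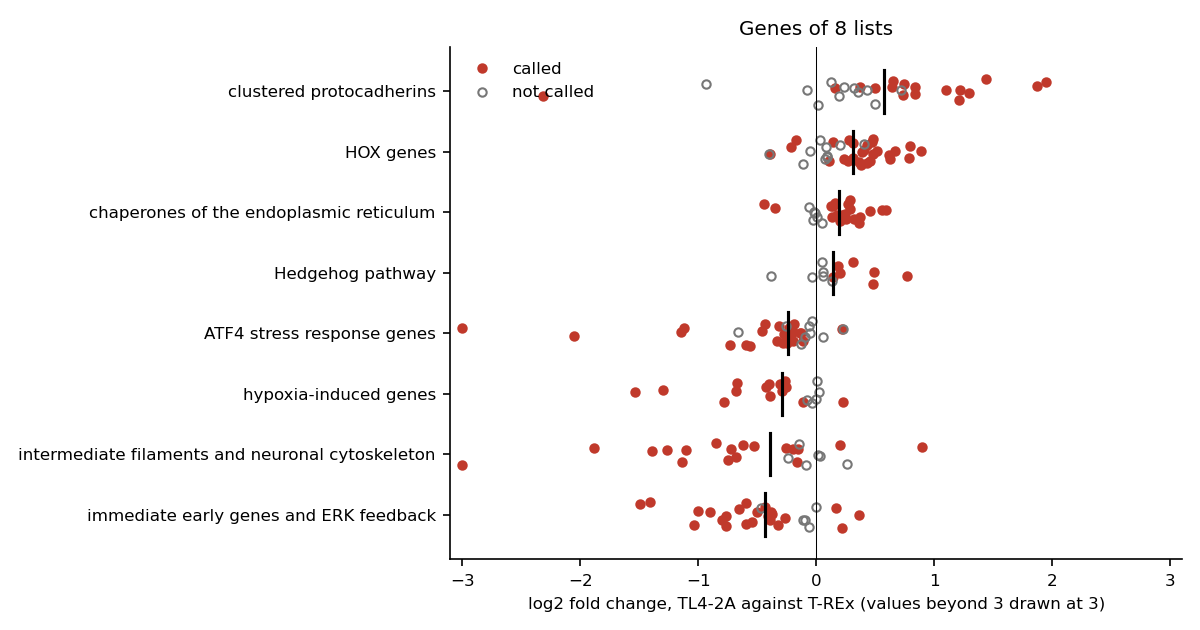
Log2 fold change of each gene of 8 lists (filled points called, open points not called) with the median of each list as a black bar, and values beyond 3 drawn at 3. The median lies at 0.57 for clustered protocadherins and at -0.44 for immediate early genes.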

How the data were processed

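The series holds 9 RNA-seq libraries of ribosomal RNA-depleted total RNA, 3 from each line. The authors mapped reads to GRCh38 with HISAT2 and deposited raw counts per Gencode gene made with featureCounts. The sources used here give no tool versions. They also deposited log2 fold changes and p-values from DESeq2, which were not used. From the deposited counts 60648 lines were used, and 3 damaged lines that split 1 gene were left out. The 37 mitochondrial genes have 0 counts in these libraries. Gencode v44 supplied names and positions for 60462 IDs.

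Counts were filtered (filterByExpr), scaled by TMM and fitted with edgeR 4.0.16 (R 4.3.3) by quasi-likelihood, with a term for each line over all 9 libraries. Tests were 2-sided with Benjamini-Hochberg adjustment over all 19473 genes, called at an adjusted p under 0.05. Total counts of 16561680 to 21491977 set the precision. Tests were checked on simulated data. Gene lists and runs were described by counts and medians, with no test.

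The members and the gene lists were chosen with earlier results of these data known. Genes named were the 15 largest rises and 15 largest falls of called protein-coding genes with a mean of 1 log2 CPM or more and groups that did not overlap, likewise 5 and 5 long noncoding RNA genes, the 10 called genes of highest CPM beyond 1.5-fold, the 3 smallest p in each list, the 4 highest CPM in each run, SMN1, SMN2 and GAPDH. Other genes named, and single neighbours, were picked once their values were known. The alternatives tried were no filter, RLE scaling, DESeq2 1.42.0, at least 10 counts in every library, each library left out, a block for the replicate number, only the 6 libraries compared, and for runs other windows, thresholds and scanned genes. Tables and plots used Python 3.11.15 with pandas 2.3.3, scipy 1.17.1 and matplotlib 3.10.9. 1 gene is not reported here.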

Additional observations from a re-analysis of the deposited data

How the results depend on the processing

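The counts of higher and lower genes stayed within 1.5 times their values under DESeq2 (3269 higher and 3273 lower), RLE scaling, other filters and the fit of only 6 libraries. Leaving out 1 library at a time gave 3709 to 3958 higher and 3788 to 4096 lower genes, 264 to 348 genes more than 2-fold higher and 511 to 559 more than 2-fold lower. With at least 10 counts in every library, which removes genes near 0 in 1 line, 109 genes were more than 2-fold higher and 207 more than 2-fold lower, and SALL3, PYCR1 and the like could not be tested. The number of runs was 15 when the other set of genes was scanned, 18 at a threshold of 0.2, 8 with windows of 25 and 12 to 16 with 1 library left out. Those fits test other sets of genes, which changes which genes are scanned. Over fixed genes the medians with 1 library left out or RLE scaling ran from 0.467 to 0.493 for the higher run of chromosome 2 and from -0.467 to -0.442 for chromosome 1, but from 0.293 to 0.407 for the short run of chromosome 5, from -0.377 to -0.293 for chromosome 18 and from 0.341 to 0.429 for the end of chromosome 13. The value of the lower run of chromosome 2 was -0.236 without TL4-2A replicate 3, that of the short run on chromosome 5 was 0.218 without T-REx replicate 3 and 0.247 without TL4-2A replicate 3, and that at the end of chromosome 13 was 0.226 without TL4-2A replicate 2, each short of 0.25. Of 182 called genes among those the naming rule chose, 178 kept their call and direction under every alternative that gave a value. The 4 that lost it somewhere were SMN1, GFAP, GATA3 and TCEAL4, and none reversed. Other genes in the text were followed only through the counts of their lists. Of the genes named, 153 differed between TL4-2A and TC4-2A cells, and 148 to 153 did with 1 library left out. The deviations of T-REx and TL4-2A libraries of the same number correlated at 0.030, 0.004 and 0.004 over all genes tested. Libraries of different number were not compared in this way, so these values cannot decide whether the replicate numbers pair the libraries. With the replicate block 4275 genes were higher and 4381 lower, and 266 and 506 beyond 2-fold, and of the genes named GATA3 lost its call (edgeR adjusted p = 0.05995). Lists held 611 called genes, 501 with DESeq2 and 615 with RLE scaling. Beyond the lists given in the report, DESeq2 moved lower calls from 10 to 6 for mitosis genes, from 11 to 7 for collagens, from 6 to 3 for insulin-like growth factor genes, from 5 to 3 for interferon-induced genes and from 2 to 1 for kidney markers, and higher calls from 5 to 3 for each of p53 targets, mitosis and Notch genes and from 4 to 2 for Sm proteins. Depth limits statements on genes under about 1 CPM.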
